A study of Mus musculus with 2 samples.

Results

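The TNF, LIGHT and lymphotoxin axis was described across the cells of a mouse tumour, as the 3 ligand genes Tnf, Tnfsf14 (LIGHT) and Ltb (lymphotoxin beta) and the 3 receptor genes Tnfrsf1a (TNFR1), Tnfrsf1b (TNFR2) and Ltbr (lymphotoxin beta receptor). These 6 genes were taken by symbol from the 32285 features of both deposited count matrices, and all 6 were present. Cells of J558, a plasmacytoma line of BALB/c origin, had been grown under the skin of immune-competent BALB/c female mice. One group was dosed by mouth with 0.5% methylcellulose (vehicle) and the other with TAK-931, an inhibitor of the replication kinase CDC7, at 60 mg/kg once a day, and tumours were dissociated at day 6. Each group was 1 library of droplet 3′ single-cell RNA sequencing, so no test between the treatments was possible and all intervals (95%) cover counting error only. By the study's account the tumour material was 1 allograft of each group, taken as its representative, so differences between tumours cannot be told apart from treatment.

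Members of the TNF superfamily are trimeric ligands made on the cell surface, and TNF is also shed as a soluble form by the protease ADAM17. TNFR1 is found on most cells and carries a death domain, whereas TNFR2 lacks one and is best known from lymphocytes, myeloid cells and endothelium. Lymphotoxin beta anchors lymphotoxin alpha at the surface of lymphocytes, and the complex acts on the lymphotoxin beta receptor of stromal, endothelial and myeloid cells, as does LIGHT. LIGHT also binds the lymphocyte receptor HVEM (Tnfrsf14). In lymphoid tissue the lymphotoxin beta receptor drives homing chemokines and adhesion molecules through the NF-kB-inducing kinase.

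The members lie in 4 places of the mm10 (GRCm38) genome, by the GENCODE annotation with the same gene identifiers as the files. Ltb (chr17:35194439-35196320, plus strand) and Tnf (chr17:35199381-35202007, minus strand) are neighbours with 3060 bases between them, and Lta, the lymphotoxin alpha gene, follows after a further 1157 bases. Tnfsf14 is elsewhere on the same chromosome (chr17:57189492-57194177, minus strand). Ltbr (chr6:125306571-125313885, minus strand) and Tnfrsf1a (chr6:125349362-125362484, plus strand) are separated by 35476 bases, and Tnfrsf1b stands alone (chr4:145213463-145246870, minus strand). The sequences upstream of the neighbours Ltb and Tnf are shown because these adjacent genes were highest in different cells below. They are RefSeq bases (GRCm38.p6) that end just before the GENCODE start of each gene, written 5′ to 3′ on the gene's own strand, chr17:35194257-35194438 (plus strand) for Ltb and chr17:35202008-35202257 (minus strand) for Tnf. Capitals mark the only matches found.
Ltb: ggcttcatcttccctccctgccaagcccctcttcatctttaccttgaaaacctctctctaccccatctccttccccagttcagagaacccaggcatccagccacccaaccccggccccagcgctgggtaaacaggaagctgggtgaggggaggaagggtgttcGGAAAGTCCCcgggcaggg
Tnf: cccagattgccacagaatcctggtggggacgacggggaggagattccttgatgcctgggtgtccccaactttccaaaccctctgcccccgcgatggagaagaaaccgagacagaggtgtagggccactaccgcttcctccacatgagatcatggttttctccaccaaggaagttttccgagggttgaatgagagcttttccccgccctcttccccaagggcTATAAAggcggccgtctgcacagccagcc
The Ltb capitals match the NF-kB consensus (read from the other strand, searched on both) and begin 19 bases before the GENCODE start, which is 87 bases before the RefSeq start since that lies 68 bases further into the gene. The Tnf capitals are a TATAAA box, searched on the gene's strand, that begins 29 bases before both starts. The motifs do not overlap. Of 32851 RefSeq promoter windows of 250 bases, 7.25% held the NF-kB consensus and 7.59% held TATAAA, and the windows of the other 4 members held neither. A match is a description of letters and not of a bound site.

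UMIs (unique molecular identifiers) each counted a single transcript. A barcode was kept as a cell when it had more than 2000 genes and less than 15% of its UMIs from mitochondrial genes. This kept 3441 of 4565 vehicle barcodes (median 40504 UMIs) and 3488 of 6558 TAK-931 barcodes (median 15097 UMIs), with totals of 144767193 and 77369283 UMIs before the filter. The libraries shared 8 barcode sequences, of which 1 was kept in both. Cells were placed in classes by fixed marker lists, and each class is named for the markers it carried (J558-like, macrophage-like and so on). In the vehicle and TAK-931 libraries respectively there were 2978 and 93 J558-like, 199 and 1913 monocyte/macrophage-like, 15 and 645 T-like, 77 and 171 endothelial-like, 14 and 42 fibroblast-like and 22 and 31 mural-like cells. Natural killer (NK)-like (3 and 44), plasmacytoid dendritic-like (7 and 56) and conventional dendritic-like cells (9 and 30) were compared across classes only in the TAK-931 library. Cells that carried the markers of lineages from different families (38 and 285) were left out of the classes, since such barcodes can hold more than 1 cell. In the TAK-931 library, the mural-like class had as many fibroblast as mural markers among its 10 leading genes (3 of each), and the NK-like and endothelial-like classes had none of their own or another class's markers there. Every order of classes given here is for cells that passed these limits, and neutrophil-like barcodes, almost all below the gene limit, were higher in several members, with Ltb at 497 and 616 CPM. Levels are given as CPM, the UMIs of a gene per 1000000 UMIs of its class, on a linear scale.

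Tnf, the ligand of both TNF receptors, was a monocyte/macrophage-like transcript in both libraries. Its level in these cells was 83.5 CPM in the vehicle library (interval 72.7 to 95.5) and 149 CPM in the TAK-931 library (145 to 153). The next class stood clearly lower in each library, with mural-like cells at 16.2 CPM under vehicle and plasmacytoid dendritic-like cells at 48.3 CPM under TAK-931. In the TAK-931 library the levels then ran through endothelial-like (47.0), fibroblast-like (35.1), mural-like (30.4) and conventional dendritic-like cells (27.4 CPM), and neighbours in this stretch did not differ beyond their intervals. T-like (12.4), NK-like (5.99) and J558-like cells (1.47 CPM) were lowest. Of all Tnf UMIs in kept cells, 73.8% (68.3 to 78.8) lay in the monocyte/macrophage-like class under vehicle and 77.7% (76.6 to 78.7) under TAK-931. To compare cells at equal depth, each cell was thinned to 4000 UMIs, and the share of cells left with a UMI was taken as its mean over all possible draws. After thinning, Tnf was seen in 21.5% of vehicle macrophage-like cells (16.1 to 28.0) and in 36.8% of TAK-931 ones (34.7 to 39.1). The share in J558-like cells, the background for a myeloid cytokine here, was 0.0719% under vehicle and 0.658% under TAK-931 (upper limits 0.242% and 5.85%).

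Tnfsf14, which encodes LIGHT, was scarce and lay in the same class. It had 33 UMIs in all kept vehicle cells and 551 in TAK-931 cells, of which 69.7% and 81.9% were in monocyte/macrophage-like cells. The level in that class was 8.98 CPM (5.69 to 13.5) under vehicle and 14.2 CPM (12.9 to 15.6) under TAK-931. Conventional dendritic-like cells of the TAK-931 library had 8.66 CPM on 6 UMIs, and the intervals of these classes overlapped. T-like cells, a known source of LIGHT in other settings, held 7 Tnfsf14 UMIs in 645 TAK-931 cells (0.579 CPM), and the share with one after thinning was 0.230% (0.00393 to 0.861). In the vehicle library the thinned share was 3.60% (1.43 to 7.11) in macrophage-like cells and 3.85% (0.169 to 31.9) in the 15 T-like cells, too few to place one above the other.

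Ltb, the membrane anchor of the lymphotoxin complex, followed the lymphocytes instead. Among classes of at least 10 cells, T-like cells were highest in both libraries, at 292 CPM (229 to 368) in the 15 vehicle cells and 484 CPM (472 to 497) in the 645 TAK-931 cells. In the TAK-931 library NK-like cells came next at 219 CPM, plasmacytoid dendritic-like cells at 87.5 CPM and monocyte/macrophage-like cells at 35.1 CPM, with intervals that did not overlap from one to the next. Endothelial-like (6.07), fibroblast-like (2.29) and mural-like cells (0 CPM, upper limit 4.88) were at the bottom beside J558-like cells (7.96). The thinned share of TAK-931 cells with an Ltb UMI was 76.4% (73.0 to 79.7) in T-like and 2.57% (0.641 to 5.88) in endothelial-like cells. In contrast to its level, most vehicle Ltb UMIs (55.4%, 50.9 to 59.8) lay in the abundant J558-like cells, whose level was only 2.11 CPM, and 47 of those 279 UMIs came from 1 cell. Under TAK-931, T-like cells held 68.8% of Ltb UMIs and J558-like cells 0.635%. The partner gene Lta gave only 16 UMIs in the vehicle library, all in J558-like cells, and 25 in the TAK-931 library, so the alpha chain could not be followed by class.

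**Figure D1:**
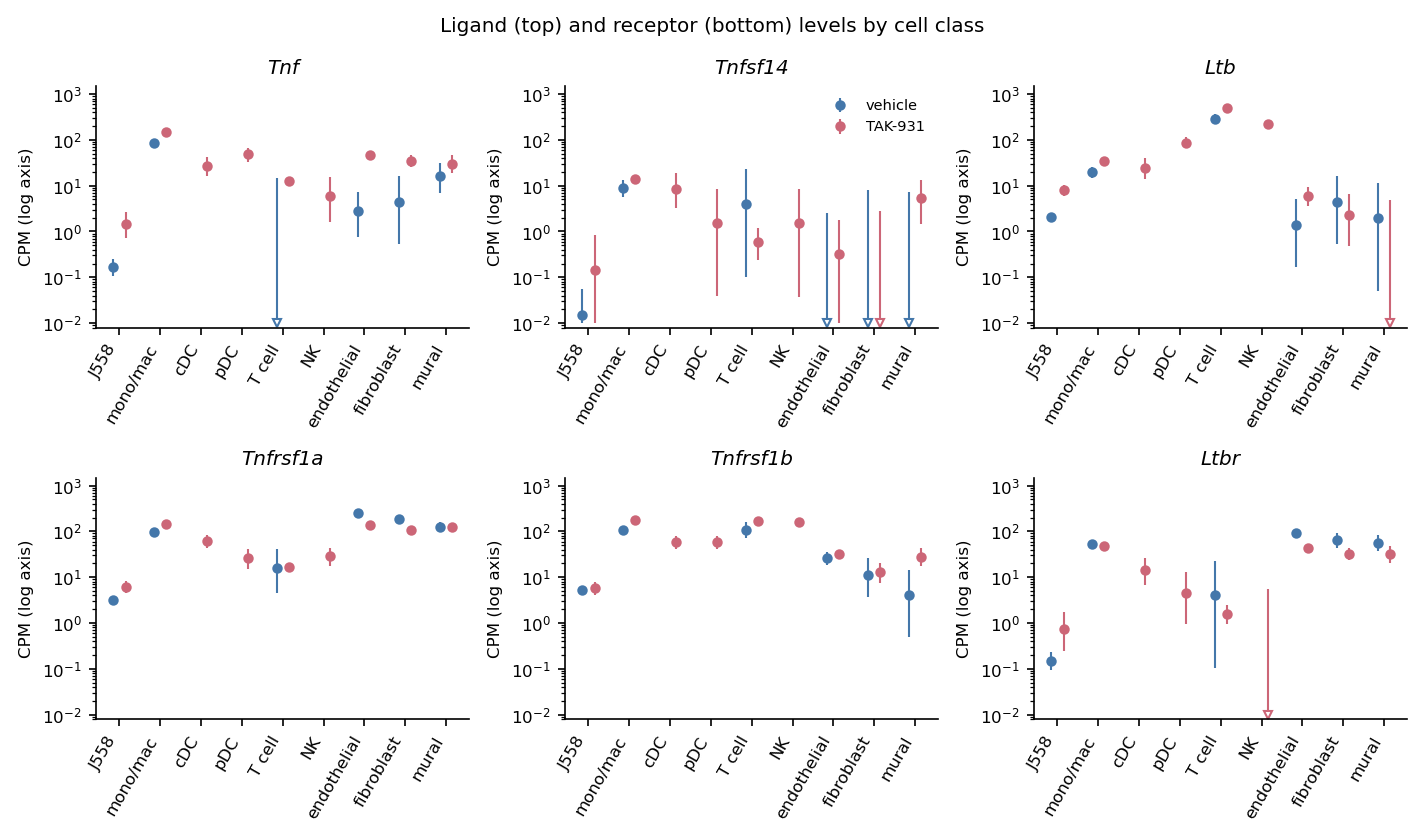
Level of each ligand (top) and receptor gene (bottom) by cell class, in CPM on a log axis, for the vehicle (blue) and TAK-931 (red) libraries, in classes with at least 10 cells of that library. Points are the summed UMIs of the class, bars are 95% counting intervals and open triangles at the axis mark classes with 0 UMIs. Among these classes of cells with more than 2000 genes, Tnf and Tnfsf14 were highest in monocyte/macrophage-like cells, Ltb in T-like cells, and Tnfrsf1a and Ltbr were low in lymphocytes and J558-like cells.

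The receptor genes had 2 different patterns. Tnfrsf1a, the death-domain receptor, was a stromal and myeloid transcript. Under vehicle it was highest in endothelial-like cells at 252 CPM (226 to 279), followed by fibroblast-like (185), mural-like (127) and monocyte/macrophage-like cells (96.4 CPM), and each neighbouring pair had overlapping intervals. Under TAK-931 the order was monocyte/macrophage-like (144), endothelial-like (136), mural-like (123) and fibroblast-like cells (107 CPM), again with overlapping neighbours. T-like cells had 16.2 and 16.6 CPM and J558-like cells 3.15 and 6.19 CPM. After thinning, 62.6% of vehicle endothelial-like cells (50.6 to 73.1) and 40.3% of TAK-931 ones (32.9 to 48.1) had a Tnfrsf1a UMI, against 6.22% of TAK-931 T-like cells.

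Tnfrsf1b, the receptor without a death domain, was the receptor of leukocytes. Its vehicle levels were 110 CPM in T-like and 107 CPM in monocyte/macrophage-like cells, which did not differ beyond their intervals. The TAK-931 levels were 176 CPM in monocyte/macrophage-like, 165 CPM in T-like and 159 CPM in NK-like cells, also with overlapping neighbours, and by thinned share the 44 NK-like cells came first (50.5%, 34.6 to 65.4, against 48.2% of macrophage-like cells). Conventional and plasmacytoid dendritic-like cells stood at 57.7 and 57.3 CPM, endothelial-like cells at 32.6 CPM and J558-like cells at 5.75 CPM. Because of the number of J558-like cells, they still held 61.5% (58.6 to 64.3) of vehicle Tnfrsf1b UMIs at a level of 5.38 CPM. In the TAK-931 library 60.3% lay in monocyte/macrophage-like and 21.5% in T-like cells.

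Ltbr, the receptor shared by lymphotoxin and LIGHT, resembled Tnfrsf1a. Vehicle levels were 91.8 CPM in endothelial-like (76.8 to 109), 64.7 CPM in fibroblast-like, 56.5 CPM in mural-like and 53.5 CPM in monocyte/macrophage-like cells. TAK-931 levels were 46.9 CPM in monocyte/macrophage-like, 44.1 CPM in endothelial-like, 32.8 CPM in fibroblast-like and 31.7 CPM in mural-like cells. Neighbours among these 4 classes overlapped in each library. Lymphocytes were near 0, with 1.57 CPM in 645 TAK-931 T-like cells and no Ltbr UMI in 44 NK-like cells (upper limit 5.52 CPM). In the TAK-931 library Ltb was thus highest in T-like cells, where Ltbr was near 0, while monocyte/macrophage-like cells held both genes (35.1 CPM of Ltb and 46.9 CPM of Ltbr) as well as Tnf and both TNF receptors.

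**Figure D2:**
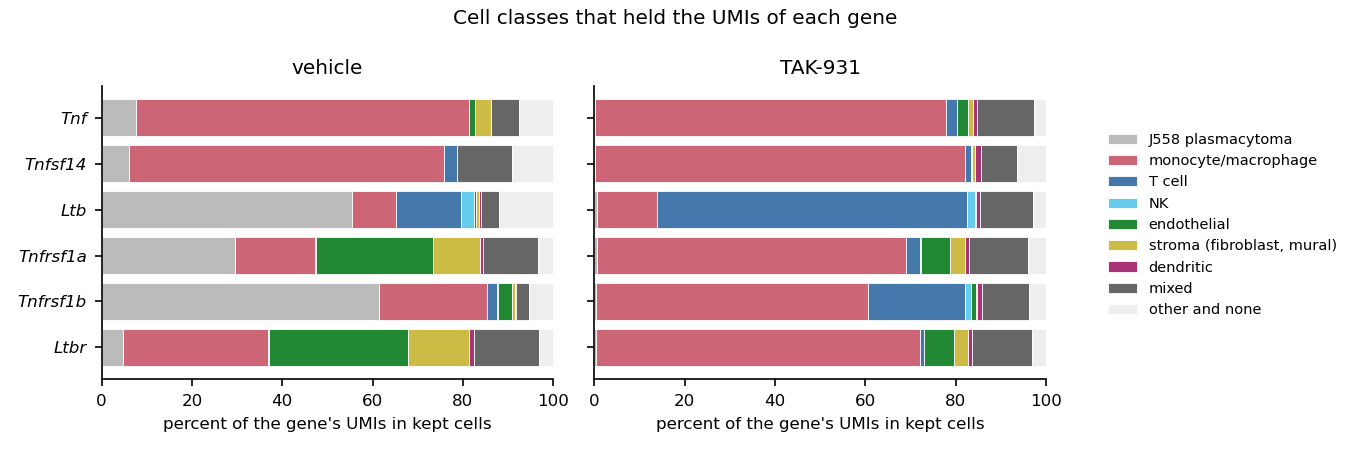
Percent of each gene's UMIs in kept cells that lay in each cell class, for the vehicle (left) and TAK-931 library (right). J558-like cells held 55.4% of Ltb and 61.5% of Tnfrsf1b UMIs under vehicle, and monocyte/macrophage-like and T-like cells held most UMIs of all 6 genes under TAK-931.

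TAK-931 was next compared with vehicle over all kept cells, which asks how much more of the axis the whole tumour suspension carried. A gene was counted as higher or lower at a ratio of at least 2-fold (log2 of 1) where the 2 libraries together held at least 10 UMIs of it. All 6 members were higher, beside 37.3% of the 18139 features compared (18.8% were lower). Tnf was 2.06 CPM and 88.0 CPM, a log2 ratio of 5.42 (5.25 to 5.59). Ltb was 3.57 and 123 CPM (log2 ratio 5.10) and Tnfsf14 was 0.234 and 7.95 CPM (5.09). The receptors had smaller ratios, with log2 ratios of 4.03 for Tnfrsf1b (8.20 and 134 CPM), 3.31 for Ltbr (3.03 and 29.9 CPM) and 3.28 for Tnfrsf1a (9.95 and 96.8 CPM). The median of the 6 was 4.56, against 0.33 over all features. When every cell was given equal weight, as the mean of the CPM of each cell, the log2 ratios were smaller, at 4.11 for Tnf, 4.59 for Ltb, 3.73 for Tnfsf14, 3.42 for Tnfrsf1b, 2.65 for Tnfrsf1a and 2.38 for Ltbr.

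These ratios carried the makeup of the suspension, since J558-like cells held 93.6% of kept UMIs under vehicle and 9.79% under TAK-931. When the vehicle level of each class was placed at the TAK-931 makeup, Tnf would have stood at 40.7 CPM, so that 4.31 of its log2 ratio of 5.42 went with makeup and 1.11 with level within classes. The makeup part was 2.92 to 4.47 for the 6 genes. The part within classes was 0.91 for Ltb, 0.83 for Tnfrsf1b, 0.62 for Tnfsf14, 0.36 for Tnfrsf1a and −0.24 for Ltbr. This calculation used the 6 classes with at least 10 cells in each library and 1 pooled remainder of all other kept cells (2.70% of vehicle and 19.4% of TAK-931 UMIs), whose own makeup could differ between the libraries. Over the 6 classes alone the part within classes was lower for every member, at 0.93 for Tnf, 0.75 for Ltb, 0.67 for Tnfrsf1b, 0.47 for Tnfsf14, 0.32 for Tnfrsf1a and −0.33 for Ltbr. All these parts depend on the order of the calculation. With TAK-931 levels placed at the vehicle makeup, Tnf would have stood at 6.78 CPM beside its vehicle 2.06 CPM. Ltb would have been 11.9 beside 3.57, Tnfsf14 0.593 beside 0.234 and Tnfrsf1b 12.4 beside 8.20 CPM. Tnfrsf1a would have been 13.0 beside 9.95 and Ltbr 2.92 beside 3.03 CPM. The part within classes was then larger for Tnf, Ltb and Tnfsf14 and smaller for Tnfrsf1b.

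Within monocyte/macrophage-like cells no member passed the 2-fold limit, beside 7.70% of features higher and 9.26% lower. Of the 6 members, 5 nevertheless leaned the same way by less than the limit. Tnf was 83.5 CPM under vehicle and 149 CPM under TAK-931 (log2 ratio 0.84, 0.64 to 1.04). Ltb was 19.5 and 35.1 CPM (0.85, 0.44 to 1.29), and it ran from 0.68 to 1.07 over the alternative settings, so it could pass the limit. For the receptors, Tnfrsf1b was 107 and 176 CPM (0.71, 0.54 to 0.89) and Tnfrsf1a 96.4 and 144 CPM (0.58, 0.40 to 0.77). Tnfsf14 was 8.98 and 14.2 CPM (0.66, 0.06 to 1.33), whereas the Ltbr interval included 0 (53.5 and 46.9 CPM, −0.19, −0.44 to 0.07). The median of the members was 0.69, and that of all features −0.01. T cell markers summed to 3.12 CPM (4 of 6 present) in vehicle macrophage-like cells and 24.6 CPM (6 of 6) in TAK-931 ones. Without the cells that held T cell marker UMIs, 194 and 1351 cells remained and the log2 ratios were 0.86 for Tnf, 0.78 for Ltb, 0.77 for Tnfrsf1b and 0.69 for Tnfrsf1a.

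In T-like cells no member was higher by 2-fold (8.22% of features were), and 1 of the 5 with enough UMIs was lower (8.86%). Ltb was 292 CPM in the 15 vehicle cells and 484 CPM under TAK-931 (log2 ratio 0.73, 0.39 to 1.09), and its thinned share was 60.3% (32.3 to 83.7) and 76.4%. Over the alternative settings the Ltb ratio ran from 0.32 to 1.23, so it could pass the limit. Tnfrsf1b was 110 and 165 CPM (0.59, 0.05 to 1.20), and Tnfrsf1a 16.2 and 16.6 CPM (0.03). Tnf was not seen in the vehicle T-like cells. A count of 0 allows up to 3 UMIs or 12.2 CPM there, and its exact interval reached above the 12.4 CPM under TAK-931, so no difference was detectable at this depth. The gene past the limit was Ltbr, on 1 and 19 UMIs, with an interval of −4.02 to 4.01. Macrophage markers in T-like cells summed to 81.1 CPM (4 of 11 present) and 385 CPM (11 of 11), and their part in these values was not tested.

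In endothelial-like cells 1 of 5 members was lower by 2-fold (Ltbr) and 2 were higher (Tnf and Ltb). Tnfrsf1a was 252 CPM under vehicle and 136 CPM under TAK-931, short of the limit (log2 ratio −0.89, −1.10 to −0.69), and Ltbr was 91.8 and 44.1 CPM (−1.06, −1.41 to −0.70). The interval of the third receptor gene, Tnfrsf1b, included 0 (25.7 and 32.6 CPM, 0.34, −0.21 to 0.93). The thinned share of cells with Ltbr was 30.6% (21.1 to 42.7) and 15.9% (10.7 to 22.1). Ltbr was the 1 member past the limit downward, beside 10.2% of features, and with scaling by the median ratio of genes instead of the total it was −0.80 and not past it. Over all the alternative settings Ltbr ran from −1.07 to −0.77, so that scaling was not the only one short of the limit. Among genes whose sums reached 50 UMIs in both libraries the median log2 ratio in this class was −0.26. In contrast Tnf was 2.78 CPM on 4 UMIs under vehicle and 47.0 CPM on 147 UMIs under TAK-931 (4.08, 2.69 to 5.97), with 44 of the latter from 1 cell, and Ltb was 1.39 and 6.07 CPM on 2 and 19 UMIs (2.13, 0.08 to 5.27). These 2 of 5 members were higher beside 9.94% of features. Tnf UMIs were found in 36 of 171 TAK-931 cells and 3 of 77 vehicle cells. The 11 macrophage markers summed to 327 CPM (8 present) and 578 CPM (11 present) in endothelial-like cells, against 18069 and 18750 CPM in macrophage-like cells, and T cell markers to 0 and 15.7 CPM. Mural markers went the other way, from 553 to 71.0 CPM. Their part in these ratios was not tested.

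Fibroblast-like and mural-like cells were few. In fibroblast-like cells Tnfrsf1a was 185 and 107 CPM (log2 ratio −0.79, −1.20 to −0.38, but −0.07 with classes from clusters) and Ltbr 64.7 and 32.8 CPM (−0.98, −1.69 to −0.25). Mural markers in these fibroblast-like cells summed to 4783 CPM under vehicle and 779 CPM under TAK-931, and T cell markers to 24.5 and 156 CPM. Mural-like cells had Ltbr at 56.5 and 31.7 CPM (−0.83) with an interval that reached 0.01, and Tnfrsf1a at 127 and 123 CPM (−0.05). Tnf was past the limit in fibroblast-like cells on 2 and 46 UMIs (2.98, 1.04 to 6.06), beside 12.5% of features higher (14.0% were lower), but 20 of the 46 UMIs and both of the vehicle ones were in 1 cell each. Tnfrsf1b was past it in mural-like cells on 2 and 21 UMIs (2.78, 0.75 to 5.92, but 1.62 with mixed cells kept), with 9 of the 21 in 1 cell, beside 17.2% of features higher and 6.92% lower, and macrophage markers there summed to 18.2 and 505 CPM. The part of these markers was not tested.

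J558-like cells had low levels of the members in both libraries, although their number gave them the vehicle UMI shares stated above. Tnfrsf1b was 5.38 and 5.75 CPM (log2 ratio 0.09, −0.41 to 0.56) and Tnfrsf1a 3.15 and 6.19 CPM (0.97, 0.48 to 1.43). Over the alternative settings given below, Tnfrsf1b ran from −0.40 to 1.30 and Tnfrsf1a from 0.76 to 1.22, so both could pass the limit. Ltb ran from 1.62 to 3.24. Ltb was past the limit (2.11 and 7.96 CPM, 1.91, 1.46 to 2.34). So were Tnf (22 and 10 UMIs, 3.14, 1.90 to 4.28) and Ltbr (20 and 5 UMIs, 2.28, 0.51 to 3.74). These were 3 of 5 members beside 9.77% of features higher, and none was lower (4.94% of features). Of the Tnf UMIs, 10 of 22 under vehicle and 4 of 10 under TAK-931 were in 1 cell each. Only 93 J558-like cells were present under TAK-931, and in them macrophage markers summed to 229 CPM against 41.8 CPM under vehicle and T cell markers to 13.9 against 1.14 CPM. With free RNA subtracted the Tnf ratio was 1.75, and as the mean of the CPM of each cell it was 2.13. The part of the markers in the 3 ratios was not tested.

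**Figure D3:**
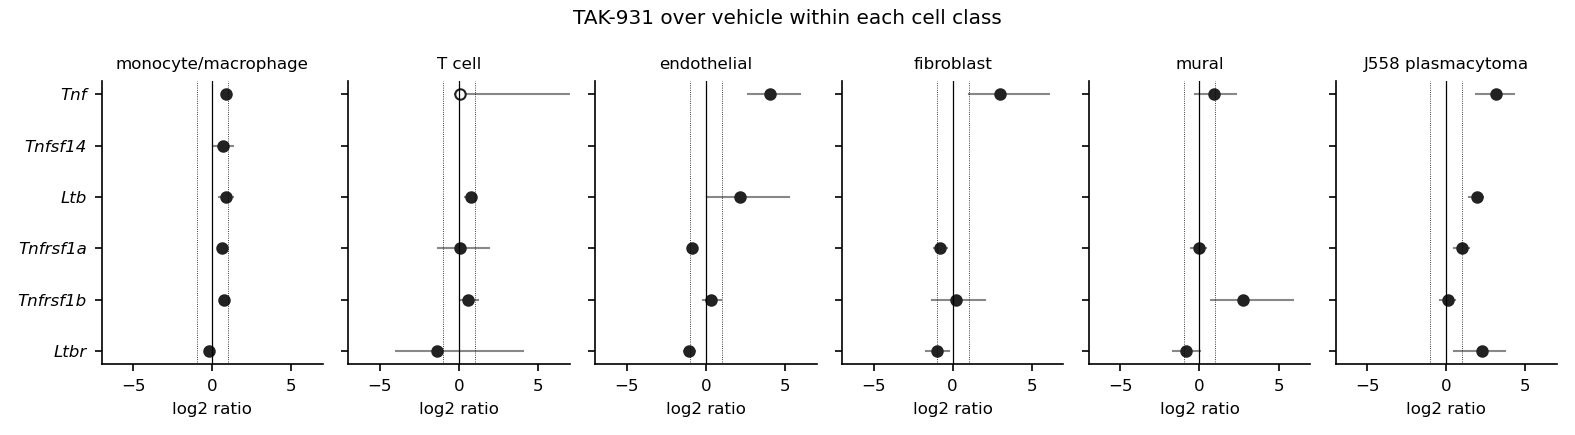
Log2 ratio of TAK-931 over vehicle for each member within 6 cell classes, for genes that reached 10 UMIs over the 2 libraries. Bars are 95% counting intervals, dotted lines mark 2-fold, and the open circle is a ratio to 3 counts in place of a vehicle count of 0. The macrophage-like values lay between −0.19 and 0.85, and Tnfrsf1a and Ltbr were below 0 in endothelial-like and fibroblast-like cells.

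Within the monocyte/macrophage-like class, members differed between cells low and high in C1q, the complement gene set of resident-type macrophages. The cells were divided at 10 C1q UMIs per 10000, where few cells lay, with 3 vehicle and 124 TAK-931 cells within 2-fold of that line. Tnfsf14 was 27.0 CPM in C1q-low and 3.11 CPM in C1q-high vehicle cells (log2 difference 3.12, 1.71 to 4.75), and 21.4 and 10.9 CPM under TAK-931 (0.97, 0.70 to 1.24). Tnfrsf1a was alike in the vehicle cells (92.0 and 97.8 CPM, −0.09, −0.54 to 0.34) and higher in C1q-low TAK-931 cells (209 and 116 CPM, 0.85, 0.77 to 0.94). Tnfrsf1b was higher in C1q-low cells of both libraries (165 and 88.5 CPM under vehicle, 231 and 151 CPM under TAK-931). Tnf was 175 and 137 CPM under TAK-931 (0.35), Ltb 44.4 and 31.0 CPM (0.52) and Ltbr 56.6 and 42.5 CPM (0.41). The vehicle intervals of these 3 genes included 0, with log2 differences of 0.42 for Tnf, 0.53 for Ltb and −0.22 for Ltbr (47.6 and 55.4 CPM).

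Seen by treatment, the C1q-low cells differed most in Tnfrsf1a (92.0 and 209 CPM, log2 ratio 1.18, 0.81 to 1.58) and the C1q-high cells in Tnfsf14 (3.11 and 10.9 CPM, 1.82, 0.67 to 3.28, on 6 vehicle UMIs). In C1q-low cells Tnfsf14 was 27.0 CPM under vehicle and 21.4 CPM under TAK-931 (−0.33, −1.04 to 0.48), so its lean in the whole class was not seen there. Tnf was 0.76 higher in C1q-low and 0.83 higher in C1q-high cells, so its difference was of like size in the 2 subsets. Among C1q-low TAK-931 cells, the 195 with Ace or Treml4, markers of non-classical monocytes, had less Tnfsf14 than the 556 without (9.82 and 25.5 CPM, −1.38, −2.04 to −0.77). The same cells had more of the other 5 members, by log2 differences of 0.27 (Tnfrsf1a) to 0.43 (Ltb), although for Tnf (0.41) 84 of their 546 UMIs were in 1 cell.

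T-like cells were divided by Cd8, Cd4, Foxp3 (the regulatory T cell factor) and Gzmb (granzyme B) UMIs in the TAK-931 library. Ltb was 798 CPM in 87 CD4 cells with Foxp3 (754 to 845), 743 CPM in 15 CD4 cells without it (620 to 883) and 416 CPM in 482 CD8 cells (403 to 429). Foxp3 CD4 cells were thus 0.94 higher than CD8 cells on the log2 scale (0.85 to 1.04), whereas the CD4 groups overlapped. Within CD8 cells, the 356 with Gzmb had 379 CPM of Ltb and the 126 without it 590 CPM (−0.64, −0.74 to −0.53). These groups were divided at 1 Gzmb UMI without thinning, so the division could also sort cells by depth. After thinning, 70.4% (65.2 to 74.9) of the CD8 cells with Gzmb and 82.2% (74.8 to 88.7) of those without had an Ltb UMI. Tnfrsf1b was 206 CPM in Foxp3 CD4 and 155 CPM in CD8 cells (0.41, 0.23 to 0.59), and did not differ beyond its interval between CD8 cells with and without Gzmb (157 and 149 CPM, 0.07, −0.13 to 0.28). Tnf stayed low in every subset, with 11.7 CPM in CD8 and 16.1 CPM in Foxp3 CD4 cells. The vehicle library had only 7 CD8 and 3 Foxp3 CD4 cells, too few to divide.

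**Figure D4:**
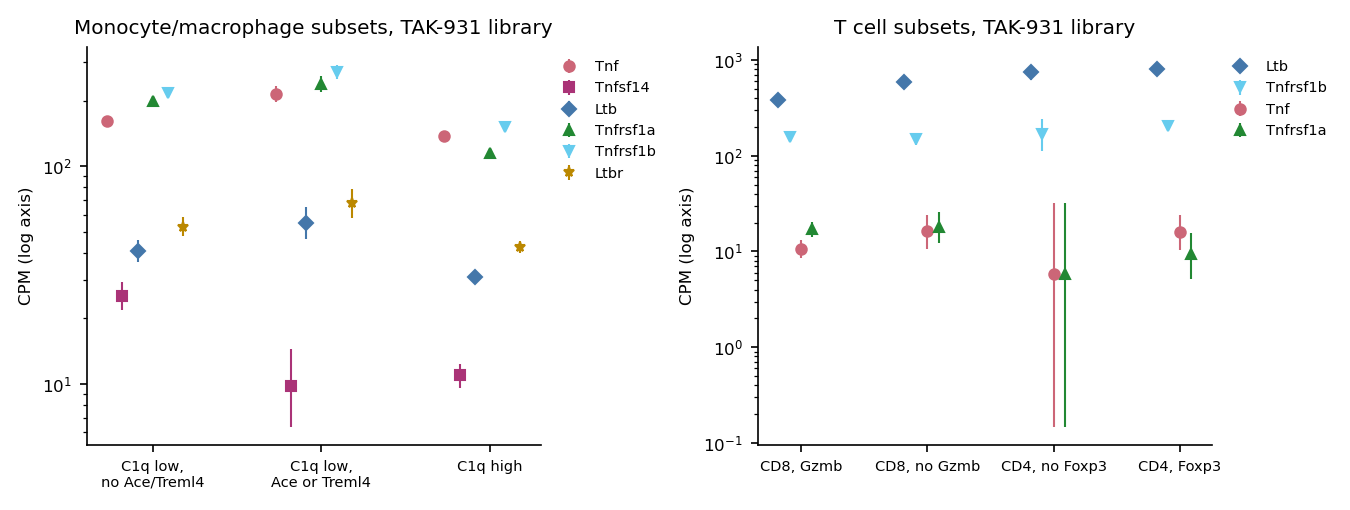
Member levels (CPM, log axis) in subsets of the monocyte/macrophage-like class (left) and the T-like class (right) of the TAK-931 library, with 95% counting intervals. Tnfsf14 was 25.5 CPM in C1q-low cells without Ace and Treml4 and 9.82 CPM in those with them, and Ltb ran from 379 CPM in CD8 cells with Gzmb to 798 CPM in CD4 cells with Foxp3.

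At equal depth the members also varied from cell to cell in different ways. In TAK-931 macrophage-like cells thinned to 4000 UMIs in 20 random draws, Tnf and Tnfrsf1a had like means (0.635 and 0.644 UMIs per cell), but the variance averaged 2.43 times the mean for Tnf (2.07 to 2.94 over the draws) and 1.29 times for Tnfrsf1a (1.20 to 1.35). The tenth of cells with most Tnf held 52.0% of its UMIs, and that for Tnfrsf1a 41.2%. In the vehicle library the ratio was 2.07 for Tnf and 1.30 for Tnfrsf1a, and the draws overlapped (1.49 to 2.80 and 1.08 to 1.58). The ranges over draws cover only the random thinning of the same cells and not which cells were sampled. Before thinning, 1 TAK-931 macrophage-like cell held 84 of the 4737 Tnf UMIs of the class. In TAK-931 T-like cells the ratio was 3.05 for Ltb (mean 2.50 UMIs per cell) and 1.21 for Tnfrsf1b (mean 0.734).

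The genes with the most similar pattern were sought over 13 points, the class sums of at least 20 cells (4 of the vehicle and 9 of the TAK-931 library), among 11536 genes. The points share libraries and cell classes, so the Pearson correlations of log2(CPM + 10) are a description. Tnf was most like Cstb (0.92), Tesk1, Mtmr10, Clcn7 and Lst1, and Tnfsf14 most like Pid1 (0.96), Clec4b1, Wdr91, Pi4k2a and Slamf8. Ltb was most like Xlr4b (0.97), Fcho1, Unc13d, Tbc1d10c and Dennd1c. Tnfrsf1b was most like Gmfg (0.96), Cwc25, Rgs2, Dnm2 and Epsti1, and Tnfrsf1a most like Diaph2 (0.96), Wsb2, Slc39a1, Nrp1 and Crk. Ltbr was most like Crk (0.96), Nrp1, Nrp2, Tcn2 and the member Tnfrsf1a (0.95). Between members, Ltb and Tnfrsf1b correlated at 0.78 and Tnf and Tnfsf14 at 0.72, while Ltb stood at −0.55 with its receptor Ltbr and at 0.05 with its neighbour on the chromosome, Tnf.

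The wider pathway was read from 4 lists of 49 genes. Over all kept cells, 31 of the 47 genes with enough UMIs were higher under TAK-931 and 1 was lower, with a median log2 ratio of 1.98, where 37.3% of all features were higher. Of 5 other ligands and receptors of the axis, 4 were higher, led by Cd160 (5.83) and Btla (3.44), which are binding partners of HVEM on lymphocytes, and including Tnfrsf14 itself (1.11 and 7.11 CPM, 2.68) and Lta (1.67). Adam17, which releases soluble TNF, was 134 CPM in vehicle and 165 CPM in TAK-931 macrophage-like cells. Of 20 adaptors and kinases 8 were higher, a share near the 37.3% of all features. The leading ones were Traf1 (4.40), Traf5 (3.61), Map3k14 (the NF-kB-inducing kinase, 3.12), Ripk1 (1.98) and Birc3 (1.76). Of 12 NF-kB subunits and inhibitors 10 were higher, among them Tnfaip3 (A20, 4.99), Nfkbie (4.05), Zfp36 (3.24), Rel (3.03) and Nfkb2 (2.56). Of 10 target genes 9 were higher, including the monocyte chemokine Ccl2 (5.30), the B cell chemokine Cxcl13 (4.07), Cxcl1 (3.56) and Sele (E-selectin, 3.45). Ccl19, a chemokine of lymphoid stroma, went from 0 to 106 UMIs (lower limit of the log2 ratio 5.84), and Madcam1 was lower (−1.58). The change in cell makeup described above applies to these values too.

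Within classes far fewer pathway genes passed the limit. In monocyte/macrophage-like cells 3 of 41 were higher and 1 was lower (median 0.18, all features −0.01), beside 7.70% and 9.26% of all features. The share higher was thus near that of all features, and the share lower was below it. The 3 higher genes were Ccl2 (114 and 449 CPM, log2 ratio 1.98), Rnf31 (4.29 and 12.5 CPM, 1.55), a subunit of the linear ubiquitin ligase, and the adaptor Traf1 (38.3 and 84.4 CPM, 1.14). The adhesion receptor Vcam1 was the 1 lower gene (704 and 170 CPM, −2.05). In endothelial-like cells 7 of 40 were higher and 1 lower (median 0.46, all features −0.12), beside 9.94% and 10.2% of all features. Vcam1 was higher there (34.8 and 388 CPM, 3.48, 3.07 to 3.92), opposite to its direction in macrophage-like cells. Ccl2 (100 and 353 CPM, 1.82), Glycam1 (6 and 40 UMIs, 1.62), Traf1 (20.2 and 57.5 CPM, 1.51), Nfkbie (1.26), Cyld (1.16) and Rnf31 (1.13) were the others. Madcam1 was lower on 8 and 5 UMIs (−1.80, −3.76 to −0.01). In J558-like cells 6 of 41 were higher (9.77% of all features), namely Ccl2 (4.43), Cxcl1 (3.31), Vcam1 (3.12), Tnfaip3 (1.86), Traf5 (1.36, on 38 and 5 UMIs) and Lta (1.28, on 16 and 2 UMIs), and Tnfrsf14 was lower (−1.11, on 126 and 3 UMIs, beside 4.94% of all features). The intervals of Traf5 (−0.35 to 2.70), Lta (−1.88 to 3.37) and Tnfrsf14 (−3.41 to 0.47) included 0. The macrophage marker sums given above for endothelial-like and J558-like cells stand beside these values, and their part was not tested.

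**Figure D5:**
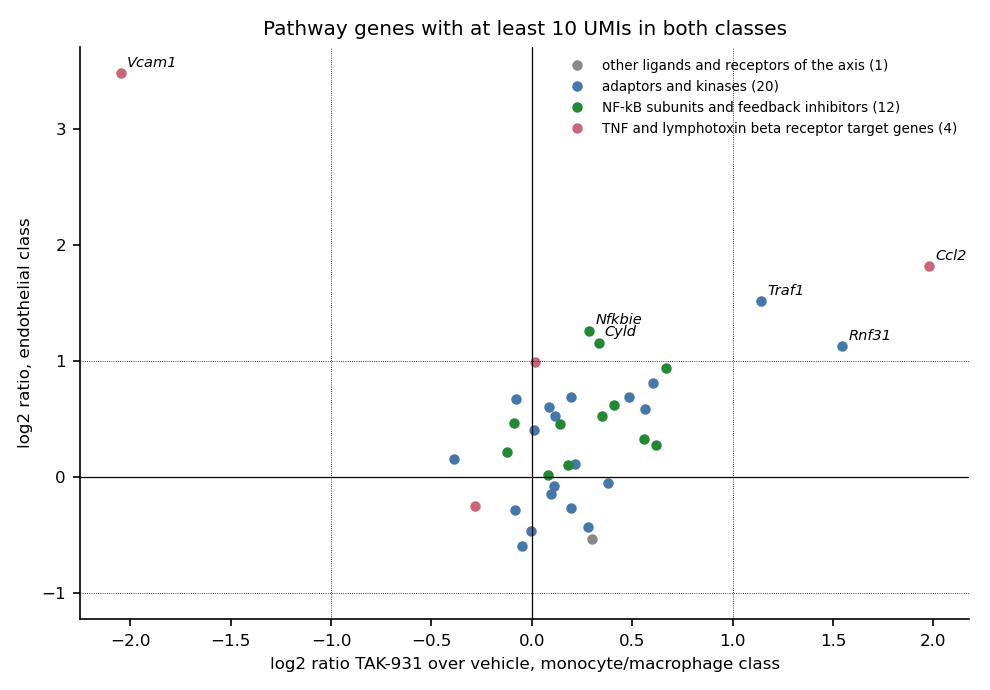
Log2 ratio of TAK-931 over vehicle in monocyte/macrophage-like (horizontal) and endothelial-like cells (vertical) for the pathway genes with at least 10 UMIs in both classes, coloured by list. Dotted lines mark 2-fold and labelled genes passed it in at least 1 class. Ccl2, Traf1 and Rnf31 were higher in both classes, and Vcam1 was lower in the first and higher in the second.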

How the data were processed

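One single-cell library of each treatment (vehicle, TAK-931) was prepared from J558 allografts by the authors with 10x Genomics 3′ chemistry (version 3.1). The deposited matrices hold raw counts of UMIs per gene and barcode, not normalized, from Cell Ranger 6.0.0 and mm10 by the submitters' processing notes (the methods name a human build, but the identifiers are mouse). Gene positions are from GENCODE and upstream bases from RefSeq (GRCm38.p6).

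As in the study's methods, a barcode needed more than 2000 genes and less than 15% of mitochondrial UMIs. A marker counted as present at 0.5 or more per 10000 UMIs. A cell passed a lineage with at least 50% of its markers, the larger share won within myeloid, lymphoid and stromal families, and cells passing in different families were set aside in place of a doublet caller. These 2 gate settings were chosen after marker counts per cell, and the C1q line after the C1q distribution, were seen. The C1q classes are ranges and not cell types. UMIs were summed per class and divided by the class total (CPM), with exact Poisson intervals for levels, exact binomial (Clopper-Pearson) intervals for shares and conditional binomial intervals for ratios, all at 95%. Thinned shares are means over all draws, taken because single draws differed, with the interval from the count rounded to whole cells. A count of 0 was replaced by 3 counts as a bound. With 1 library per group no p-value was computed. UMI intervals treat transcripts as independent. The ratio calculation was tested on simulated data. Python 3.11.15, numpy 2.4.6, scipy 1.17.1, pandas 2.3.3, scanpy 1.11.5 and matplotlib 3.10.9 were used.

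Members, lists and markers were chosen with earlier results of these data known. Named genes were the 6 members, up to 5 pathway genes per list and direction past 2-fold in each comparison, and the 5 genes most like each member. Alternatives covered gene and mitochondrial limits, scaling, thinning, clustered classes, mixed cells, free RNA, single cells and list thresholds. After the data were seen, leaving out macrophage-like cells with T cell marker UMIs and the makeup calculation over the compared classes alone were added.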

Additional observations from a re-analysis of the deposited data

Results flagged for a closer look

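Tnfrsf1a went in opposite directions between classes under the same contrast of TAK-931 with vehicle. Its log2 ratio was 0.97 in J558-like and 0.58 in monocyte/macrophage-like cells, but −0.89 in endothelial-like and −0.79 in fibroblast-like cells, with no counting interval that included 0, although the fibroblast-like value was −0.07 with classes from clusters. Ltbr was likewise 2.28 in J558-like cells (0.51 to 3.74, on 20 and 5 UMIs) against −1.06 in endothelial-like and −0.98 in fibroblast-like cells. Macrophage markers in J558-like cells summed to 41.8 CPM under vehicle and 229 CPM under TAK-931, and their part was not tested. These differences between classes were not tested, since each group was 1 library.

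Barcodes with 501 to 2000 genes, which the comparisons did not use, also held members. Macrophage-like barcodes there (60 vehicle, 228 TAK-931) had Tnf at 46.4 and 143 CPM (log2 ratio 1.62, 0.77 to 2.61) and Ltb at 19.3 and 59.9 CPM (1.63, 0.32 to 3.31, on 5 and 52 UMIs). Tnfrsf1a (−0.19) and Tnfrsf1b (−0.18) leaned the other way there than in the kept macrophage-like cells, with intervals that included 0. Neutrophil-like barcodes (28 and 54) had Tnfrsf1a at 139 and 451 CPM (1.70, 0.58 to 3.06, on 7 and 68 UMIs). T-like barcodes (39 and 347) had Ltb at 570 and 731 CPM (0.36, 0.03 to 0.70) and Tnf at 56.3 and 22.7 CPM (−1.31, −2.45 to 0.01, on 8 and 34 UMIs). The samples behind these values were the same 2 libraries, and none of the differences was tested.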

How the results depend on the processing

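No paired analysis was possible because each group was 1 library and no result came from a test between groups, and no library could be left out. Of the summary counts recomputed under alternatives, 104 stayed within 1.5 times the reported count and 17 moved. Of the values of single members, 328 stayed within their counting interval and 36 moved. Of those past 2-fold, 1 reversed, Ltbr in T-like cells (0.18 with the mixed cells kept, −1.37 as reported). The sign differed from that reported in 9 cases over 5 ratios, which were T-like Tnfrsf1a and Ltbr, J558-like and fibroblast-like Tnfrsf1b and mural-like Tnfrsf1a. Fibroblast-like Tnfrsf1a ran from −0.85 to −0.07. Over the 6 classes 7 member ratios were past 2-fold upward and 2 downward. Upward there were 11 with classes from clusters and 14 with mixed cells kept. Downward there was 1 under each of no mitochondrial limit, median-ratio scaling, classes from clusters, mixed cells kept and the top cell left out. With barcodes of over 500 genes kept, only 2 (vehicle) and 1 (TAK-931) of the 6 members kept their highest class, since neutrophil-like barcodes then led. Endothelial-like cells were highest under TAK-931 for Tnfrsf1a and Ltbr with classes from clusters, for Tnfrsf1a with mixed cells kept and for Ltbr with no mitochondrial limit, and macrophage-like cells were highest under vehicle for Tnfrsf1b with median-ratio scaling or free RNA subtracted. The class highest by thinned share was that highest by level except for Tnfsf14 under vehicle (T-like) and Tnfrsf1b under TAK-931 (NK-like). Against those classes by share, 4 (vehicle) and 3 (TAK-931) members had the same one without thinning, and 5 and 6 with thinning to 2000 UMIs. With a log2 limit of 0.5 and an interval that excluded 0, pathway genes higher were 9 in monocyte/macrophage-like cells (3 as reported) and 16 in endothelial-like cells (7), and those lower were 2 in each of J558-like, monocyte/macrophage-like and endothelial-like cells (1 each). Endothelial-like cells had 11 higher with median-ratio scaling and 0 lower with at least 50 UMIs required. Over all 12 alternatives the macrophage-like log2 ratios ran from 0.81 to 0.95 for Tnf, 0.68 to 1.07 for Ltb, 0.53 to 0.70 for Tnfrsf1a, 0.57 to 0.83 for Tnfrsf1b and 0.30 to 0.91 for Tnfsf14. Endothelial-like Ltbr ran from −1.07 to −0.77 over 11, and T-like Ltb from 0.32 to 1.23. T-like Tnf, with a vehicle count of 0 as reported, gave no ratio to compare these with and is not among the sign changes. The causes of these moves were not tested. Vehicle T-like (15), fibroblast-like (14) and mural-like (22) cells set the limits of depth.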

Other observations

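Neutrophil-like barcodes were almost all below the gene limit used for the comparisons (28 vehicle and 54 TAK-931 barcodes with 501 to 2000 genes, against 0 and 3 above it), and their level of several members was above that of every class compared. Tnf, which neutrophils can make, was 1133 CPM under vehicle (858 to 1467) and 729 CPM under TAK-931 (599 to 879). Tnfrsf1b was 676 and 590 CPM, Ltb 497 and 616 CPM, and Tnfsf14 159 and 92.8 CPM on 8 and 14 UMIs. Ltbr had only 1 and 2 UMIs, too few to give a level. Their median depth was 1646 and 2557 UMIs, so these levels rest on few transcripts per barcode.

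Among the other low-gene barcodes, Ltb was 570 and 731 CPM in T-like and 444 and 463 CPM in NK-like barcodes, levels near those of the neutrophil-like ones. Tnfsf14 in low-gene macrophage-like barcodes was 34.8 and 9.21 CPM (log2 ratio −1.92, −3.49 to −0.37) on 9 and 8 UMIs, the opposite direction to the kept macrophage-like cells. In low-gene endothelial-like barcodes of the TAK-931 library (60), Tnf was 39.7 CPM on 10 UMIs with no more than 4 in 1 barcode.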
